A study of Mus musculus with 16 samples.

Results

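The TGF-beta response of MEC1 cells with lowered p53 was taken from the 2 libraries labelled p53 siRNA with TGF-beta, set against the 2 libraries labelled p53 siRNA without TGF-beta. These 4 libraries were chosen by their titles from the 16 of the study, and all genes of the table were read across them. MEC1 is an established mouse epicardial cell line, here 1 line with no genotype given, and its polyadenylated RNA was sequenced. The study combined 4 siRNA treatments, p53 siRNA, PRMT1 siRNA, both siRNAs together and control siRNA, each with and without TGF-beta, in 8 groups of 2 libraries. Its title links PRMT1, Mdm4 and p53 to the invasion and fate change of epicardial cells, and the comparison asks which TGF-beta responses took place when p53 had been lowered by siRNA. The p53_si_TGFB libraries received p53 siRNA and TGF-beta, and the p53_si libraries received p53 siRNA with no TGF-beta. Groups used beside them were Cont_si_TGFB, control siRNA with TGF-beta, and Cont_si, control siRNA with no TGF-beta, so every group had been given an siRNA. TGF-beta isoform, dose and time and the siRNA sequences are not given in the sources used here. The other 8 libraries, with PRMT1 siRNA or both siRNAs, entered the estimate of the spread and nothing else. The design text calls the libraries of a group biological replicates without saying that they came from separate cultures, so p-values measure the spread between these libraries, which may be technical.

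The epicardium is the mesothelial sheet around the heart, and some of its cells lose their epithelial junctions, invade the heart wall and become fibroblasts and mural cells. TGF-beta binds a receptor pair on the cell surface that phosphorylates Smad2 and Smad3, which enter the nucleus with Smad4 and switch on genes of matrix, adhesion and contraction as well as inhibitors of the pathway itself. p53 is a stress-induced transcription factor that arrests the cell cycle or starts cell death, and it is held low by Mdm2 and Mdm4.

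Library totals were 22491930 and 22515629 counts with p53 siRNA and TGF-beta, against 22379800 and 24384315 counts with p53 siRNA alone, within a range of 19617742 to 30759199 over the study. One library stood apart, the second p53_si_TGFB replicate. Across genes, which are not independent replicates, its log2 CPM and those of its partner had a Pearson r of 0.967, against 0.990 to 0.994 for the partners of the other 7 groups. Genes with a count numbered 19133 in that library, against 20076 to 20978 in the others. A ribosomal RNA gene took 5.75% of its counts, against 0.557% to 4.35% in the others. The log2 ratio of that library to its partner had a median of 0.516 in the fifth of genes with the shortest transcripts and -0.515 in the fifth with the longest, against 0.00483 and -0.00371 for the p53 siRNA pair. Each result was therefore computed with 16 libraries and again with 15, without that library, when replicate 1 alone stood for TGF-beta. A gene is said to have risen or fallen where both computations called it the same way at an adjusted p under 0.05 (edgeR quasi-likelihood test, Benjamini-Hochberg adjustment over all genes tested). Levels are CPM, counts scaled to the library's total and its TMM factor, and are given for replicates 1 and 2 in that order. Levels are not divided by transcript length, so they compare libraries and not genes. Log2 changes are p53_si_TGFB over p53_si ± SE, and each is given as a pair, the first value from 16 and the second from 15 libraries. The SE was derived from the test, as the size of the log2 change divided by the square root of its F value. The RNA came from whole cultures, where fewer cells expressing a gene and less RNA per cell cannot be told apart.

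**Figure D1:**
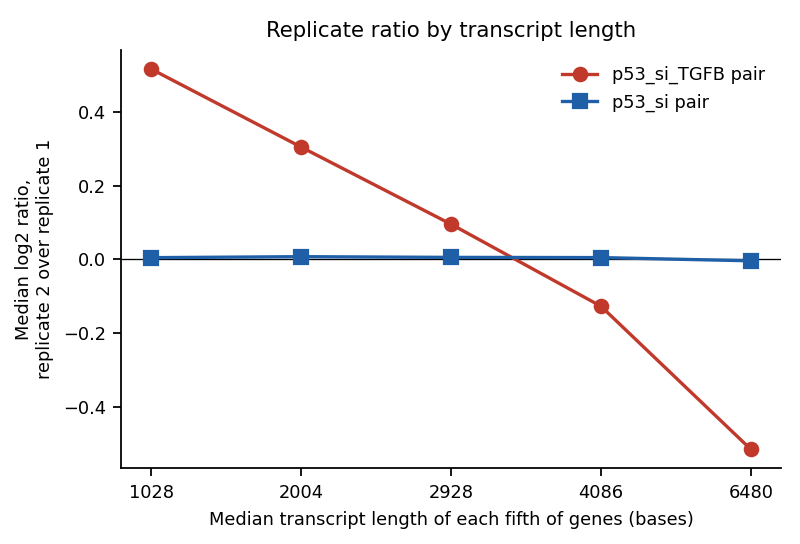
Median log2 ratio of replicate 2 to replicate 1 (y axis) in 5 equal groups of genes ordered by transcript length (x axis, median length in bases), for the p53_si_TGFB pair and the p53_si pair. The p53_si_TGFB pair runs from 0.516 for the shortest to -0.515 for the longest transcripts, while the p53_si pair stays near 0.

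Trp53 itself, the target of the siRNA, stood at 59.4 and 73.6 CPM in p53_si_TGFB libraries and 55.4 and 54.2 CPM in p53_si libraries. Cont_si_TGFB libraries had 148 and 148 CPM and Cont_si libraries 144 and 128 CPM, so all 4 libraries given p53 siRNA lay below all 4 given control siRNA. With 16 libraries, the log2 change of Trp53 with p53 siRNA over control siRNA was -1.16 ± 0.095 (adjusted p = 1.3e-04) with TGF-beta and -1.32 ± 0.095 (adjusted p = 8.9e-05) without it. With only the 4 libraries of the first contrast in the fit it was not called (log2 -1.17, adjusted p = 0.69). TGF-beta changed Trp53 by 0.28 ± 0.094 and 0.11 ± 0.073 (adjusted p = 0.031 with 16 and 0.22 with 15 libraries), a call that 15 libraries did not give. Mdm2, the ubiquitin ligase that degrades p53, had 94.5 and 78.2 CPM with TGF-beta and 77.8 and 82.1 CPM without, and its groups overlapped (log2 0.11 ± 0.088 and 0.24 ± 0.068, adjusted p = 0.33 and 0.01). Mdm4, the inhibitor named in the title, had 144 and 73.3 CPM with TGF-beta and 157 and 156 CPM without (log2 -0.53 ± 0.22 and -0.12 ± 0.10, adjusted p = 0.075 and 0.35). Replicate 2 with TGF-beta, the library that stands apart, alone was low in Mdm4. Prmt1, which encodes the arginine methyltransferase named there, had 176 and 272 CPM with TGF-beta and 145 and 153 CPM without (log2 0.59 ± 0.16 and 0.24 ± 0.10, adjusted p = 0.012 and 0.075). Of the 7 arginine methyltransferase genes tested, 3 rose and 0 fell, against 18.3% and 19% of all genes, and with 16 libraries alone 5 were called higher. Prmt5, which makes symmetric dimethylarginine, had 65.2 and 83.3 CPM with TGF-beta and 57 and 53.4 CPM without (log2 0.43 ± 0.099 and 0.24 ± 0.068).

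TGF-beta changed a large part of the transcriptome of p53 siRNA cells: 2836 genes rose and 2937 fell, 18.3% and 19% of the 15494 tested. With 16 libraries alone 3604 genes (23.3%) were called higher and 3408 (22%) lower. With 15 libraries, 3649 and 3782 of 16103 genes were called (22.7% and 23.5%), and 0 genes were called in opposite directions by the 2 computations. With only the 4 libraries of the comparison in the fit, the counts were 896 higher and 1311 lower. The median log2 change of all tested genes was 0.017 with 16 and -0.0043 with 15 libraries. Among large changes, 318 rises and 642 falls reached a log2 size of 2, and 87 rises and 179 falls reached 4. Both shares over all genes, 18.3% risen and 19% fallen, are the background for every group count below. The libraries of the 2 groups did not overlap for 62.5% of all tested genes, which is the background for each statement on overlap. Many genes named below were picked by their values in this comparison, so their lack of overlap is partly fixed by that choice.

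**Figure D2:**
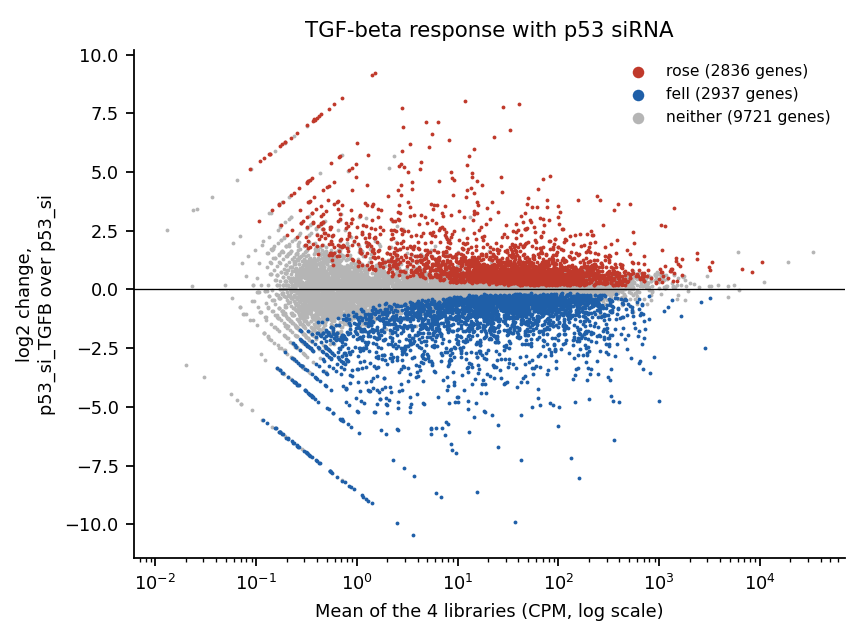
Log2 change with TGF-beta in p53 siRNA cells (y axis, p53_si_TGFB over p53_si, 16 libraries) against mean level (x axis, CPM, log scale) for the 15494 tested genes. Coloured points are the 2836 genes that rose and the 2937 that fell with 16 and with 15 libraries, and the falls extend further from 0 than the rises.

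Early target genes of TGF-beta rose in p53 siRNA cells: 19 of 23 tested rose, 2 fell, and their median log2 change was 1.38 with 16 and 1.35 with 15 libraries, against 0.017 and -0.0043 for all genes. Tgfbi, a secreted adhesion protein first found as a TGF-beta-induced gene, had 162 and 190.1 CPM in p53_si_TGFB libraries, against 20.8 and 20.2 CPM in p53_si libraries (log2 3.1 ± 0.10 and 2.98 ± 0.086). Cyr61, a secreted matrix protein of the CCN family, had 173 and 203 CPM with TGF-beta and 30.8 and 31.8 CPM without (log2 2.59 ± 0.10 and 2.47 ± 0.090). Junb, a subunit of the AP-1 factor, had 89.3 and 115 CPM with TGF-beta and 34.4 and 35.4 CPM without (log2 1.55 ± 0.12 and 1.35 ± 0.090). For all 3 genes both TGF-beta libraries lay above both libraries without it. Wnt9a, a Wnt ligand, and Nedd9, a focal adhesion scaffold named here after its value was seen, were the 2 members that fell. Of 18 Smad and feedback inhibitor genes 8 rose and 4 fell. Smad7, which blocks the type I receptor, had 30.3 and 30.6 CPM with TGF-beta and 16.2 and 18.5 CPM without (log2 0.81 ± 0.088 and 0.80 ± 0.099). Skil, which encodes the Smad corepressor SnoN, had 159.6 and 87.7 CPM with TGF-beta and 54.3 and 52.6 CPM without (log2 1.21 ± 0.20 and 1.58 ± 0.066, and 0.72 without replicate 1 of p53_si_TGFB). Ldlrad4, whose product keeps Smad proteins from the receptor, had 26.5 and 21.3 CPM with TGF-beta and 7.03 and 6.24 CPM without (log2 1.85 ± 0.15 and 2.0 ± 0.13). Smad7, Skil and Ldlrad4 did not overlap between the groups, while Smad6, the inhibitor of the BMP branch, fell to 26.4 and 30.7 CPM with TGF-beta, against 54 and 56.4 CPM without (log2 -0.95 ± 0.089 and -1.07 ± 0.089).

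Genes for the ligands, receptors and latency proteins of TGF-beta split. Of 19 ligand, receptor and latency genes, 7 rose and 8 fell, and their median was -0.081 with 16 and -0.20 with 15 libraries. Tgfb1, which encodes TGF-beta 1, had 43.6 and 60.1 CPM with TGF-beta and 21.4 and 18.3 CPM without (log2 1.38 ± 0.13 and 1.14 ± 0.086). Ltbp1, which stores the latent ligand in the matrix, had 285 and 191 CPM with TGF-beta and 83.3 and 82.6 CPM without (log2 1.52 ± 0.15 and 1.78 ± 0.076). Tgfb3, another ligand, fell by less, at 126 and 131 CPM with TGF-beta and 159 and 154 CPM without (log2 -0.28 ± 0.062 and -0.32 ± 0.059), and Tgfb2 was called in neither computation (log2 -0.081 ± 0.097 and 0.069 ± 0.071, adjusted p = 0.52 and 0.47). Tgfbr2, the ligand-binding type II receptor, fell to 135 and 117 CPM with TGF-beta, against 262 and 246 CPM without (log2 -1.01 ± 0.080 and -0.91 ± 0.068). Tgfbr3, the coreceptor betaglycan that is needed for coronary vessel development, fell to 28.5 and 18.7 CPM with TGF-beta, against 146 and 129.5 CPM without (log2 -2.54 ± 0.18 and -2.28 ± 0.14). Both receptors were lower in each TGF-beta library than in either library without it. All 4 Id genes on the list, dominant-negative partners of helix-loop-helix factors and targets of BMP signalling, fell. Id2 had 0.844 and 1.24 CPM with TGF-beta and 18.3 and 16 CPM without (log2 -4.05 ± 0.17 and -4.34 ± 0.20). Within the BMP list 5 of 19 genes rose and 11 fell. Among those that rose, Grem1, a secreted BMP antagonist, had 332 and 261 CPM with TGF-beta and 90.6 and 95.1 CPM without (log2 1.68 ± 0.11 and 1.84 ± 0.077), and Fstl3, which binds activin, had 72.5 and 96 CPM with TGF-beta and 9.39 and 8.24 CPM without (log2 3.26 ± 0.16 and 3.04 ± 0.12). The largest adjusted p among the genes given as changed for the pathway, receptors and BMP genes was 0.0029 with 16 and 5.1e-04 with 15 libraries.

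**Figure D3:**
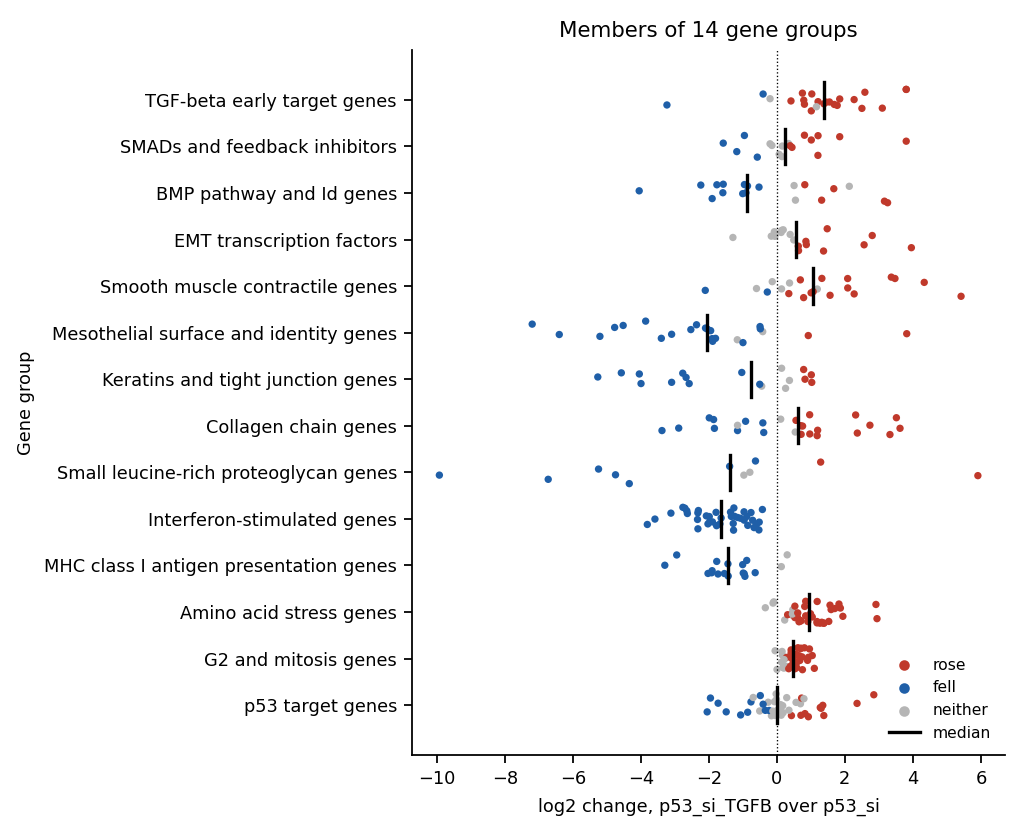
Log2 change with TGF-beta in p53 siRNA cells (x axis, p53_si_TGFB over p53_si, 16 libraries) for every tested gene of 14 gene groups (rows), with points coloured by whether the gene rose, fell or passed neither way with 16 and 15 libraries, and a bar at each group's median. All 39 interferon-stimulated genes lie left of 0, and mesothelial genes have a median of -2.04.

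Transcription factors of epithelial-mesenchymal transition rose in part. Of 18 tested, 9 rose and 0 fell. Snai2, a repressor of epithelial genes, had 46 and 54.1 CPM with TGF-beta and 18.8 and 19.8 CPM without (log2 1.37 ± 0.11 and 1.25 ± 0.11). Foxc2, a forkhead factor of mesenchyme, had 20.6 and 25.1 CPM with TGF-beta and 1.45 and 1.48 CPM without (log2 3.96 ± 0.21 and 3.8 ± 0.21). Runx1 had 197 and 161 CPM with TGF-beta and 25.4 and 25.7 CPM without (log2 2.81 ± 0.11 and 2.94 ± 0.077). The groups did not overlap for these 3 factors. Zeb1, another repressor of epithelial genes, was not called, at 77.9 and 44.2 CPM with TGF-beta and 69.7 and 67.2 CPM without (log2 -0.16 ± 0.20 and 0.19 ± 0.11, adjusted p = 0.53 and 0.18). Cdh2, the cadherin of mesenchymal cells, was not called either (log2 0.032 ± 0.067 and 0.094 ± 0.060, adjusted p = 0.72 and 0.23). Of 18 mesenchymal marker genes 13 rose and 3 fell. Fn1, the matrix glycoprotein fibronectin, had 11073 and 6124 CPM with TGF-beta and 4603 and 4714 CPM without (log2 0.88 ± 0.24 and 1.25 ± 0.17), and Vim, the intermediate filament vimentin, had 1402 and 2102 CPM with TGF-beta and 927 and 973 CPM without (log2 0.88 ± 0.15 and 0.56 ± 0.095). Both were higher in each TGF-beta library, but the call of Fn1 was lost without replicate 1 of p53_si_TGFB (log2 0.40) or without either p53_si library (adjusted p = 0.052 to 0.062). Pdgfra, a receptor of fibroblast precursors, fell to 284 and 171 CPM with TGF-beta, against 1163 and 1086 CPM without (log2 -2.31 ± 0.19 and -1.99 ± 0.11).

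Smooth muscle genes rose as a group, 14 of 21 with 2 falls and a median log2 change of 1.07 with 16 and 0.97 with 15 libraries. Cnn1, the actin-binding protein calponin, had 20.2 and 31.4 CPM with TGF-beta and 1.04 and 1.48 CPM without (log2 4.33 ± 0.30 and 3.98 ± 0.26). Myl9, the regulatory light chain of smooth muscle myosin, had 95.8 and 163 CPM with TGF-beta and 32 and 29 CPM without (log2 2.08 ± 0.20 and 1.65 ± 0.11). Pdlim7, an adaptor of actin bundles, had 153 and 234 CPM with TGF-beta and 45.1 and 46.1 CPM without (log2 2.09 ± 0.16 and 1.74 ± 0.087). None of the 3 overlapped between the groups. Mylk and Smtn, contractile genes named after their values were seen, were the 2 falls: Mylk, the kinase that activates myosin, had 70.2 and 36.2 CPM with TGF-beta and 237 and 221 CPM without (log2 -2.1 ± 0.26 and -1.71 ± 0.17). Pericyte genes moved in opposite directions, 4 up and 2 down of 8. Rgs5, a regulator of G proteins that marks pericytes, had 29.8 and 23.2 CPM with TGF-beta and 0.862 and 1.04 CPM without (log2 4.79 ± 0.25 and 4.95 ± 0.23). Kcnj8, a subunit of ATP-sensitive potassium channels, had 0.0469 and 0 CPM with TGF-beta and 5.54 and 6.04 CPM without, near 0 in both TGF-beta libraries. Of 26 actin and focal adhesion genes 16 rose and 4 fell. Zyx, the focal adhesion protein zyxin, had 603 and 853 CPM with TGF-beta and 223 and 229.8 CPM without (log2 1.69 ± 0.14 and 1.41 ± 0.080), and Ezr, the membrane-cytoskeleton linker ezrin of epithelial cells, fell to 198 and 203 CPM with TGF-beta, against 776 and 767 CPM without (log2 -1.95 ± 0.066 and -1.96 ± 0.067).

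Mesothelial identity genes fell almost throughout: 19 of 23 fell, 2 rose, and their median log2 change was -2.04 with 16 and -2.2 with 15 libraries. Msln, the surface protein mesothelin, had 21.3 and 28.8 CPM with TGF-beta and 103 and 103 CPM without (log2 -2.04 ± 0.12 and -2.28 ± 0.084). Krt19, a keratin of simple epithelium, had 0.188 and 0.103 CPM with TGF-beta and 1.23 and 1.36 CPM without (log2 -3.09 ± 0.63 and -2.76 ± 0.74). Podxl, a sialomucin of the free cell surface, had 10.2 and 6.34 CPM with TGF-beta and 737 and 666 CPM without (log2 -6.4 ± 0.19 and -6.1 ± 0.13). In all 3 cases both TGF-beta libraries were lower than both others. The 2 members that rose, named after their values were seen, were Cpe, a carboxypeptidase, and Cd200, a surface glycoprotein. Of 13 epicardial transcription factors 7 fell and 1 rose. Gata6, a zinc finger factor of the epicardium, had 39.7 and 40.8 CPM with TGF-beta and 194 and 194 CPM without (log2 -2.27 ± 0.063 and -2.29 ± 0.067). Tcf21, a factor of epicardium-derived fibroblasts, had 8.3 and 10.7 CPM with TGF-beta and 12.4 and 12.5 CPM without (log2 -0.39 ± 0.11 and -0.59 ± 0.10), a call lost without replicate 1 of p53_si_TGFB (log2 -0.22) or either p53_si library (adjusted p = 0.052 to 0.087). Tbx18, a T-box factor of the epicardium, had 21.7 and 16.5 CPM with TGF-beta and 16.5 and 15.6 CPM without and was called higher with 15 libraries but not with 16 (log2 0.25 ± 0.11 and 0.43 ± 0.084, adjusted p = 0.079 and 7.0e-04).

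Keratin and junction genes were 10 of 18 lower and 4 higher. Krt7, a keratin of simple epithelia, had 2.63 and 4.02 CPM with TGF-beta and 58.1 and 51.1 CPM without (log2 -4.04 ± 0.15 and -4.38 ± 0.13). Cldn15, a tight junction claudin, had 0.516 and 1.08 CPM with TGF-beta and 18.7 and 19 CPM without (log2 -4.57 ± 0.24 and -5.18 ± 0.25). Ocln, the tight junction protein occludin, had 0.985 and 0.929 CPM with TGF-beta and 6.22 and 5.28 CPM without (log2 -2.58 ± 0.17 and -2.54 ± 0.23). These 3 fell with no overlap, whereas Krt8, another keratin of simple epithelia, had 1.59 and 1.44 CPM with TGF-beta and 0.726 and 0.760 CPM without (log2 1.03 ± 0.27 and 1.09 ± 0.36) and rose, a call lost without p53_si replicate 1 (adjusted p = 0.052). Retinoic acid, a signal that the epicardium makes, is synthesised by aldehyde dehydrogenases. Aldh1a1 fell to 24.9 and 24.3 CPM with TGF-beta, against 351 and 362 CPM without (log2 -3.86 ± 0.090 and -3.84 ± 0.10). Aldh1a2, the enzyme of the embryonic epicardium, had 0.469 and 0.361 CPM with TGF-beta and 1.04 and 0.840 CPM without (log2 -1.16 ± 0.41 and -0.99 ± 0.54) with adjusted p = 0.037 and 0.15. Stra6, a receptor for retinol-binding protein, had 0.0469 and 0 CPM with TGF-beta and 2.72 and 1.44 CPM without. Over the retinoic acid list 6 of 15 genes fell and 1 rose. For the genes given as changed among transition, contractile, mesothelial and epithelial genes, adjusted p was at most 0.012 with 16 and 0.024 with 15 libraries.

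Collagen genes did not move together. Of 26 chains 14 rose and 9 fell, with a median log2 change of 0.63 with 16 and 0.81 with 15 libraries. Col1a1, the main chain of fibrillar collagen I, had 14159 and 14888 CPM with TGF-beta and 6386 and 6379.9 CPM without (log2 1.19 ± 0.092 and 1.15 ± 0.090). Col5a1, a chain of the fibril-nucleating collagen V, had 2015 and 1643 CPM with TGF-beta and 269 and 279.8 CPM without (log2 2.74 ± 0.10 and 2.88 ± 0.075). Col6a2, a chain of the beaded filament collagen VI, had 112 and 129 CPM with TGF-beta and 1269 and 1229.7 CPM without (log2 -3.38 ± 0.097 and -3.49 ± 0.094). Col1a1 and Col5a1 were higher and Col6a2 lower in each TGF-beta library, and Col6a1 fell with it (log2 -2.89 ± 0.078 and -2.83 ± 0.079). Col3a1, a chain of fibrillar collagen III, fell by less (log2 -0.38 ± 0.087 and -0.40 ± 0.096). Enzymes that process collagen were higher for 14 of 19 genes and lower for 2. Plod2, a lysyl hydroxylase for crosslinks, had 299.7 and 234 CPM with TGF-beta and 106 and 105 CPM without (log2 1.34 ± 0.10 and 1.51 ± 0.063). Loxl2, a lysyl oxidase, had 896 and 637 CPM with TGF-beta and 265 and 268 CPM without (log2 1.53 ± 0.13 and 1.75 ± 0.073). Bmp1, the procollagen C-proteinase, had 303 and 325 CPM with TGF-beta and 88.7 and 89.8 CPM without (log2 1.81 ± 0.079 and 1.76 ± 0.069). All 3 enzymes rose without overlap, while the 2 falls, P4ha1 and P4ha2, which encode prolyl hydroxylase subunits, were smaller in size. P4ha1 changed by -0.24 ± 0.070 and -0.32 ± 0.063 and P4ha2 by -0.24 ± 0.092 and -0.41 ± 0.068 (log2). The call of P4ha1 was lost without p53_si replicate 1 (adjusted p = 0.12) and that of P4ha2 without replicate 1 of p53_si_TGFB (log2 -0.095) or either p53_si library (adjusted p = 0.14 to 0.24).

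Small leucine-rich proteoglycans, which bind collagen fibrils, fell for 7 of 11 genes and rose for 2. Lum, the proteoglycan lumican, had 0.188 and 0.774 CPM with TGF-beta and 54.7 and 45.3 CPM without (log2 -6.72 ± 0.32 and -8.02 ± 0.30). Dcn, decorin, which also binds TGF-beta, had 64.6 and 78 CPM with TGF-beta and 1961 and 1861 CPM without (log2 -4.74 ± 0.15 and -4.89 ± 0.17). Aspn, asporin, had 5.63 and 5.26 CPM with TGF-beta and 0.182 and 0 CPM without. Lumican and decorin were thus lower and asporin higher in each TGF-beta library, and Bgn, biglycan, rose too (log2 1.29 ± 0.084 and 1.2 ± 0.075). Among matricellular genes 10 of 16 rose and 4 fell. Tnc, the adhesion-modulating protein tenascin C, had 1090.5 and 709 CPM with TGF-beta and 228 and 227 CPM without (log2 1.98 ± 0.18 and 2.26 ± 0.12). Thbs1, thrombospondin 1, which activates latent TGF-beta, had 2033 and 1197 CPM with TGF-beta and 496 and 505 CPM without (log2 1.69 ± 0.18 and 2.02 ± 0.085). Elastic fibre genes were 6 higher and 5 lower of 14: Fbn1, the microfibril protein fibrillin 1, had 1157 and 554 CPM with TGF-beta and 393 and 381 CPM without (log2 1.14 ± 0.26 and 1.58 ± 0.13, and 0.52 without replicate 1 of p53_si_TGFB). Emilin2, an elastin-binding glycoprotein, had 2.77 and 2.68 CPM with TGF-beta and 7.4 and 7.28 CPM without (log2 -1.43 ± 0.15 and -1.41 ± 0.19). Fbn1 was higher and Emilin2 lower in each TGF-beta library.

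Proteases of the matrix were 11 higher and 6 lower of 24. Mmp9, a gelatinase, had 44.7 and 47 CPM with TGF-beta and 0.499 and 0.520 CPM without (log2 6.47 ± 0.17 and 6.44 ± 0.16). Mmp2, the other gelatinase, had 1889 and 2062 CPM with TGF-beta and 311 and 298 CPM without (log2 2.7 ± 0.084 and 2.63 ± 0.073). Mmp13, a collagenase, had 2.06 and 2.48 CPM with TGF-beta and 34.7 and 31.6 CPM without (log2 -3.87 ± 0.19 and -4.0 ± 0.22). Both gelatinases were higher and the collagenase lower in each TGF-beta library. In the plasminogen system, which activates proteases at the cell surface, 4 of 9 genes rose and 0 fell. Plau, urokinase, had 14.1 and 14.3 CPM with TGF-beta and 4.49 and 5.52 CPM without (log2 1.5 ± 0.12 and 1.49 ± 0.14), and its receptor gene Plaur had 43.2 and 58.7 CPM with TGF-beta and 10.7 and 11.2 CPM without (log2 2.22 ± 0.14 and 1.98 ± 0.11). Both were higher in each TGF-beta library. Integrin and laminin subunits were 10 higher and 6 lower of 22. Itga11, a collagen-binding integrin of fibroblasts, had 45.8 and 36.4 CPM with TGF-beta and 3.4 and 2.8 CPM without (log2 3.73 ± 0.17 and 3.89 ± 0.14). Itgb3, a subunit of a receptor that activates latent TGF-beta, had 137 and 90.1 CPM with TGF-beta and 9.8 and 10.4 CPM without (log2 3.49 ± 0.17 and 3.76 ± 0.091). Itga3, a laminin-binding integrin of epithelia, had 60.6 and 61.4 CPM with TGF-beta and 179.6 and 174 CPM without (log2 -1.54 ± 0.070 and -1.55 ± 0.073). Itga3 was lower in each TGF-beta library and the other two integrins were higher. Hyaluronan and proteoglycan genes rose for 11 of 19 and fell for 3; Has2, the main hyaluronan synthase of the developing heart, had 70.1 and 49.6 CPM with TGF-beta and 8.99 and 12.5 CPM without (log2 2.47 ± 0.16 and 2.69 ± 0.11). Across the matrix and protease genes given as changed, adjusted p was at most 0.048 with 16 and 0.0035 with 15 libraries.

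Interferon-stimulated genes fell in p53 siRNA cells given TGF-beta: 39 of 39 tested fell, 0 rose, and their median log2 change was -1.64 with 16 and -1.69 with 15 libraries. Type I interferons bind a surface receptor, and the factors it activates bind a repeated GAAA element before the genes of antiviral defence. Oas3, a sensor of double-stranded RNA, had 4.36 and 2.99 CPM with TGF-beta and 24.2 and 22.1 CPM without (log2 -2.65 ± 0.18 and -2.41 ± 0.19). Cmpk2, a mitochondrial nucleotide kinase induced by interferon, had 31.1 and 28.6 CPM with TGF-beta and 141 and 158 CPM without (log2 -2.32 ± 0.13 and -2.27 ± 0.15). Herc6, the ligase that attaches Isg15 in mice, had 72.6 and 64.7 CPM with TGF-beta and 265 and 279 CPM without (log2 -1.99 ± 0.11 and -1.91 ± 0.11). All 3 were lower in each TGF-beta library. Ifnb1, the gene of interferon beta, was low in all 4 libraries, at 0.141 and 0.310 CPM with TGF-beta and 1.04 and 1.32 CPM without (log2 -2.39 ± 0.47 and -3.03 ± 0.68). Ifnar1, a chain of the interferon receptor, had 102 and 94.1 CPM with TGF-beta and 128 and 125 CPM without (log2 -0.37 ± 0.067 and -0.31 ± 0.062), and Irf1, a factor for interferon and MHC class I genes, had 60.6 and 71.1 CPM with TGF-beta and 121 and 124 CPM without (log2 -0.90 ± 0.088 and -1.02 ± 0.083). Over the list of interferon ligands, receptors and their signalling genes 11 of 18 fell and 0 rose. In control siRNA cells the same 39 genes had a median log2 change with TGF-beta of -0.91. The difference between the responses was called for 9 of them, all toward a larger fall with p53 siRNA, against 0.536% of all genes called in that direction.

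Rsad2, an antiviral enzyme, had 83.5 and 77.2 CPM with TGF-beta and 516 and 575 CPM without (log2 -2.76 ± 0.14 and -2.71 ± 0.17). The promoters of Rsad2 and Oas3 are shown because these genes fell and because their windows hold the repeat. The letters are the 200 bases before each gene's start in RefSeq (GRCm38.p6, the build named mm10), read 5′ to 3′ on the gene's own strand. Capitals mark GAAA, any 2 bases and GAAA again, searched on both strands, so that TTTC, any 2 bases and TTTC is the same element on the other strand.
Rsad2, chr12:26456453-26456652, minus strand: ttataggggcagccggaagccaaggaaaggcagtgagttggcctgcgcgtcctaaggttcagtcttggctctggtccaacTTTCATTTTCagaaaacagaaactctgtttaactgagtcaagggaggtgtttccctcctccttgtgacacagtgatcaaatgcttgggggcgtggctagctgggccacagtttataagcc
Oas3, chr5:120777660-120777859, minus strand: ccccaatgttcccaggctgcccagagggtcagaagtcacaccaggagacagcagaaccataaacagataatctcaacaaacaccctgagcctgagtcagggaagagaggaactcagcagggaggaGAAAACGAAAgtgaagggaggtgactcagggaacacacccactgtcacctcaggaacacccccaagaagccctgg
The element lay 120 to 111 bases before the start of Rsad2 and 75 to 66 bases before the start of Oas3. It was found in 12 of the 29 list genes with a promoter in the RefSeq table (41.4%) and in 2.27% of all 32851 promoters of that length. A list gene counted where any of its promoters matched, while the share over all promoters counted each promoter, so the units are unlike. A match is a description of letters and not of binding.

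**Figure D4:**
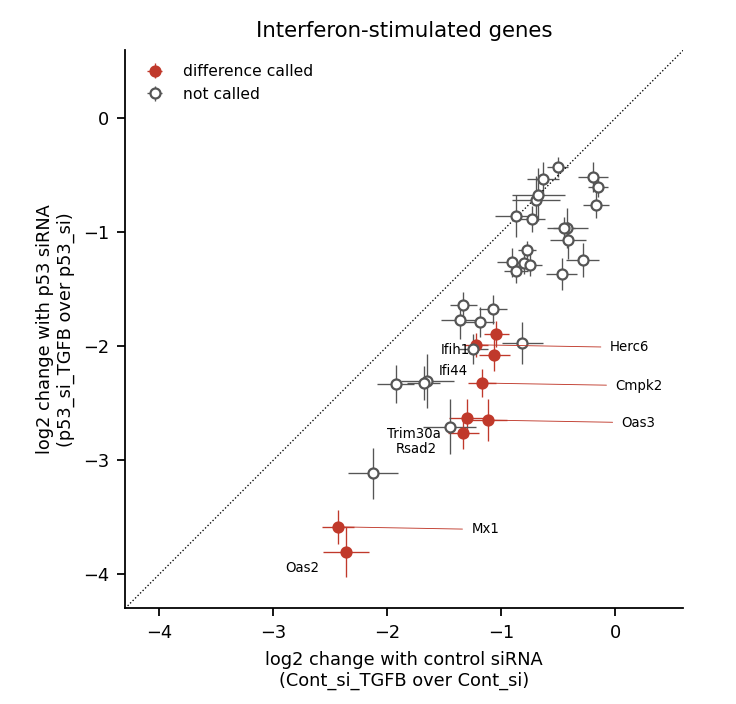
Log2 change with TGF-beta in p53 siRNA cells (y axis) against that in control siRNA cells (x axis) for the 39 interferon-stimulated genes, from the fit with 16 libraries, with bars of 1 SE and the diagonal of equal change. Filled points are the 9 genes whose change differed between the siRNA treatments with 16 and with 15 libraries; all lie below the diagonal.

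Antigen presentation genes fell, 16 of 18 lower and 0 higher, with a median of -1.43 with 16 and -1.58 with 15 libraries. B2m, the invariant chain of MHC class I, had 595 and 947 CPM with TGF-beta and 1531 and 1425 CPM without (log2 -0.94 ± 0.19 and -1.31 ± 0.15). Tap2, a subunit of the peptide transporter, had 27 and 37.2 CPM with TGF-beta and 111 and 107 CPM without (log2 -1.77 ± 0.13 and -2.02 ± 0.093). Nlrc5, the transactivator of these genes, had 4.03 and 4.44 CPM with TGF-beta and 41.4 and 41.7 CPM without (log2 -3.29 ± 0.17 and -3.36 ± 0.20). None overlapped between the groups. Complement and acute phase genes were lower for 12 of 16 and higher for 1. C3, the central complement protein, had 58.4 and 57.6 CPM with TGF-beta and 645 and 577 CPM without (log2 -3.4 ± 0.12 and -3.39 ± 0.13), and Cd55, an inhibitor of complement on the cell surface, had 14.6 and 11.9 CPM with TGF-beta and 147 and 143 CPM without (log2 -3.45 ± 0.16 and -3.31 ± 0.16). Among chemokine genes 9 of 16 fell and 2 rose: Cxcl10, an interferon-induced ligand for T cells, had 257 and 326 CPM with TGF-beta and 921 and 1041 CPM without (log2 -1.75 ± 0.15 and -1.94 ± 0.16). Cx3cl1, a membrane-bound chemokine, had 28.8 and 28.7 CPM with TGF-beta and 6.44 and 5.8 CPM without (log2 2.23 ± 0.11 and 2.24 ± 0.12). Cytokine genes went both ways, 8 up and 5 down of 24. Il6, an inflammatory cytokine, had 13.2 and 14.9 CPM with TGF-beta and 2.63 and 3.32 CPM without (log2 2.23 ± 0.13 and 2.13 ± 0.15). Ptgs2, the inducible cyclooxygenase, had 224 and 145 CPM with TGF-beta and 15.8 and 15.4 CPM without (log2 3.56 ± 0.17 and 3.84 ± 0.072). Il33, an alarmin, had 6.05 and 4.75 CPM with TGF-beta and 43.9 and 43.2 CPM without (log2 -3.01 ± 0.15 and -2.85 ± 0.15). Il6 and Ptgs2 were higher and Il33 lower in each TGF-beta library. Of 10 haematopoietic markers 3 were tested, with 1 called higher with 16 libraries and 0 with 15. The summed level of the 9 haematopoietic markers with an entry in the counts, tested or not, was 2.44 and 3.35 CPM with TGF-beta and 3.18 and 3.48 CPM without. Cd68, a marker of macrophages, had 0.891 and 1.24 CPM with TGF-beta and 1.27 and 1.24 CPM without, while the leukocyte gene Ptprc and the macrophage gene Adgre1 had 0 counts in all 4 libraries. For the interferon and immune genes given as changed, adjusted p was at most 0.0019 with 16 and 0.002 with 15 libraries.

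Genes of the amino acid stress response rose, 31 of 38 with 0 falls and a median of 0.95 with 16 and 0.76 with 15 libraries. These genes are switched on by the factor Atf4, whose translation rises when amino acids are short, and they code for amino acid synthesis, uptake and tRNA charging. Atf4 had 370.0 and 515 CPM with TGF-beta and 184 and 205 CPM without (log2 1.19 ± 0.14 and 0.93 ± 0.097). Pycr1, the last enzyme of proline synthesis, had 44.6 and 58.7 CPM with TGF-beta and 14.4 and 17.2 CPM without (log2 1.7 ± 0.13 and 1.49 ± 0.096). Slc7a11, the cystine-glutamate exchanger, had 56.3 and 36.6 CPM with TGF-beta and 15.3 and 15.4 CPM without (log2 1.6 ± 0.19 and 1.87 ± 0.14). Each was higher in both TGF-beta libraries, as was Cth, which makes cysteine from cystathionine, at 21.9 and 28.3 CPM with TGF-beta and 3.04 and 3.44 CPM without (log2 2.95 ± 0.15 and 2.75 ± 0.14), and Slc7a5, a carrier of large neutral amino acids (log2 1.18 ± 0.077 and 1.21 ± 0.077). The median of these genes in control siRNA cells was 0.57, and the difference was called for 2, Mthfd2, a mitochondrial folate enzyme (difference 0.81 ± 0.16 and 0.60 ± 0.10), and Pycr1 (difference 0.88 ± 0.17 and 0.68 ± 0.13), against 0.445% of all genes called in that direction. Both calls were lost with the replicate block, and each was kept in 2 of 8 computations that left out 1 library in turn. Without TGF-beta both genes were lower with p53 siRNA. Mthfd2 had 65.9 and 76.6 CPM in p53_si and 115 and 107 CPM in Cont_si libraries, and Pycr1 had 24.3 and 21.9 CPM in Cont_si libraries. With TGF-beta, Mthfd2 had 224 and 296 CPM in p53_si_TGFB and 231 and 232 CPM in Cont_si_TGFB libraries. Pycr1 had 40.5 and 41.2 CPM in Cont_si_TGFB libraries. Unfolded protein genes rose for 10 of 22 and fell for 1. Hspa5, the main chaperone of the endoplasmic reticulum, had 1059 and 1237 CPM with TGF-beta and 818 and 864 CPM without (log2 0.45 ± 0.086 and 0.33 ± 0.075).

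Asns, asparagine synthetase, had 293 and 391 CPM with TGF-beta and 112 and 119 CPM without (log2 1.56 ± 0.12 and 1.34 ± 0.075). The windows of Asns and Pycr1 are shown because both genes rose and hold TGATGNAA, the composite element that Atf4 binds with a partner, given in capitals and searched with its other strand TTNCATCA. Source, build, length and reading direction are those of the promoters above.
Asns, chr6:7693210-7693409, minus strand: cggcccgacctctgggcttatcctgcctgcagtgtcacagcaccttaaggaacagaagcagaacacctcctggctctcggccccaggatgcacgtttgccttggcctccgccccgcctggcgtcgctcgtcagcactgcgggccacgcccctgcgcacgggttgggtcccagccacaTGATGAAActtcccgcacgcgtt
Pycr1, chr11:120643749-120643948, minus strand: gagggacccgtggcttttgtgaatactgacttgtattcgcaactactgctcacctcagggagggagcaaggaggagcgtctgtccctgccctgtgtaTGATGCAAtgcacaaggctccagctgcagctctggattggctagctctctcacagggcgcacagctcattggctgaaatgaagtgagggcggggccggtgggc
The element lay 23 to 16 bases before the start of Asns and 103 to 96 bases before that of Pycr1. It was present in 8 of 29 list genes with a promoter (27.6%) and in 2.87% of all promoters, in the same unlike units.

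Cholesterol synthesis genes were higher for 16 of 24 and lower for 1, with a median of 0.73 with 16 and 0.51 with 15 libraries. Nsdhl, a sterol dehydrogenase of the pathway, had 31.8 and 39.8 CPM with TGF-beta and 16.6 and 17.8 CPM without (log2 1.06 ± 0.11 and 0.88 ± 0.091). Idi1, the isomerase of isopentenyl diphosphate, had 66.9 and 61.6 CPM with TGF-beta and 36.7 and 38.6 CPM without (log2 0.77 ± 0.071 and 0.83 ± 0.071). Both were higher in each TGF-beta library. The fall was in Stard4, a sterol carrier named after its value was seen. Fatty acid synthesis genes had no common direction, 4 up and 4 down of 15; Scd1, the stearoyl-CoA desaturase, had 187 and 144 CPM with TGF-beta and 221 and 213 CPM without (log2 -0.39 ± 0.11 and -0.22 ± 0.078), a call lost without p53_si replicate 1 (adjusted p = 0.07). Genes for ribosomal RNA processing rose for 16 of 20 and fell for 0. Nop56, a core protein of the particles that methylate ribosomal RNA, had 252 and 364 CPM with TGF-beta and 142 and 144 CPM without (log2 1.1 ± 0.13 and 0.81 ± 0.072). Myc, a factor that drives these genes, had 62.2 and 90.3 CPM with TGF-beta and 19.9 and 19.4 CPM without (log2 1.96 ± 0.14 and 1.66 ± 0.087). Nop56 and Myc did not overlap between the groups. Glycolysis and hypoxia genes fell for 10 of 29 and rose for 5; Pdk1, which keeps pyruvate out of the mitochondria, had 16.7 and 14.5 CPM with TGF-beta and 38.6 and 35.7 CPM without (log2 -1.25 ± 0.10 and -1.15 ± 0.11). Oxidative stress genes were 6 higher and 6 lower of 23. Nox4, a hydrogen peroxide-making oxidase, had 7.41 and 5.57 CPM with TGF-beta and 1.63 and 1.6 CPM without (log2 2.0 ± 0.19 and 2.19 ± 0.18), and Mgst1, a membrane glutathione transferase, had 48.8 and 65.2 CPM with TGF-beta and 268 and 254 CPM without (log2 -2.2 ± 0.15 and -2.42 ± 0.13).

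Genes of G2 phase and mitosis rose in p53 siRNA cells, 27 of 37 with 0 falls. With 16 libraries alone 27 were called higher and with 15 alone 35. Their median log2 change was 0.48 with 16 and 0.51 with 15 libraries. In control siRNA cells it was 0.19, and edgeR called the difference between the responses for 0 of these genes. DESeq2 called 7 of the 37 positive and 0 negative, against 227 positive and 274 negative of all 15494 genes. Cdk1, the kinase that starts mitosis, had 142 and 195 CPM with TGF-beta and 109.6 and 115 CPM without (log2 0.59 ± 0.14 and 0.33 ± 0.11). Plk1, a kinase of the spindle and centrosome, had 76.2 and 84 CPM with TGF-beta and 48.8 and 51.4 CPM without (log2 0.68 ± 0.085 and 0.60 ± 0.085). Cenpa, the histone variant of centromeres, had 107 and 138 CPM with TGF-beta and 55.8 and 63.4 CPM without (log2 1.04 ± 0.11 and 0.85 ± 0.075). All 3 were higher in each TGF-beta library. Without TGF-beta, these 3 genes were lower in both p53_si than in both Cont_si libraries. Cont_si libraries had 149.8 and 133 CPM of Cdk1, 70.2 and 60.9 CPM of Plk1 and 78.4 and 78.1 CPM of Cenpa. Cont_si_TGFB libraries had 155 and 149.5 CPM of Cdk1, 88.3 and 82.6 CPM of Plk1 and 107 and 107 CPM of Cenpa. S phase genes rose for 13 of 40, fell for 0, and had a median of 0.30 with 16 and 0.16 with 15 libraries. With 16 libraries alone 20 were called higher and 0 lower, and with 15 libraries alone 15 higher and 3 lower. Ccne1, the cyclin of the entry to S phase, had 20.4 and 24.3 CPM with TGF-beta and 11.5 and 12.3 CPM without (log2 0.91 ± 0.12 and 0.78 ± 0.13). Rrm2, the small subunit of ribonucleotide reductase, had 140.1 and 138 CPM with TGF-beta and 72.9 and 72.1 CPM without (log2 0.94 ± 0.079 and 0.95 ± 0.082). Mcm2, a subunit of the replicative helicase, was not called (log2 0.14 ± 0.071 and 0.078 ± 0.065, adjusted p = 0.12 and 0.37). Cyclin and inhibitor genes were 5 higher and 5 lower of 17. Cdkn2a, the locus of p16 and p19Arf, had 9.29 and 14.8 CPM with TGF-beta and 2.36 and 1.52 CPM without (log2 2.64 ± 0.24 and 2.27 ± 0.19). Cdkn1c, the inhibitor p57, had 0.844 and 1.29 CPM with TGF-beta and 3.0 and 2.96 CPM without (log2 -1.48 ± 0.29 and -1.81 ± 0.35), and Ccnd1, cyclin D1, had 38.1 and 37.7 CPM with TGF-beta and 83.5 and 84.4 CPM without (log2 -1.15 ± 0.060 and -1.14 ± 0.065). Both fell without overlap.

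The window before Cdk1 is shown because it holds TTTGAA, the letters of the cell cycle genes homology region (TTCAAA on the other strand), at 2 places, in capitals. Source, build and reading direction are those given above.
Cdk1, chr10:69352913-69353112, minus strand: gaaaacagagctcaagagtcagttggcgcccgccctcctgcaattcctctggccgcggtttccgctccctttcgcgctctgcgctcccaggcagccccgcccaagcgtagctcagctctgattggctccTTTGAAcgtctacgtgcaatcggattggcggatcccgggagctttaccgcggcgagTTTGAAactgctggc
The matches lay 71 to 66 and 15 to 10 bases before the start. The element was found in 10 of 30 list genes with a promoter (33.3%) and in 12.5% of all promoters, again in unlike units.

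Known p53 target genes split evenly: 11 of 43 rose, 11 fell, and their median was 0.0015 with 16 and -0.010 with 15 libraries. With control siRNA it was -0.011. The difference was called for 1 of the 43, in the positive direction, against 0.445% of all genes. That gene was Tnfaip8, a regulator of cell death named after its value was seen. DESeq2 called 3 of the 43 positive and 2 negative, against 227 positive and 274 negative of all 15494 genes. Cdkn1a, the inhibitor p21 that p53 and TGF-beta both induce, had 22.9 and 24.7 CPM in p53_si_TGFB libraries and 9.03 and 9.2 CPM in p53_si libraries (log2 1.38 ± 0.078 and 1.33 ± 0.093). Cont_si_TGFB libraries had 55.5 and 55.3 CPM and Cont_si libraries 29 and 27.1 CPM of Cdkn1a, a log2 change of 0.98 ± 0.071 with control siRNA. The difference between the responses was 0.40 ± 0.10 and 0.36 ± 0.11 (adjusted p = 0.11 and 0.15), although Cdkn1a stood lower in p53 siRNA cells with and without TGF-beta. Gadd45a, a growth arrest gene, had 66 and 90.8 CPM with TGF-beta and 11.2 and 10.6 CPM without (log2 2.85 ± 0.15 and 2.6 ± 0.11). Plk2, a kinase of the stress response, had 269.5 and 284 CPM with TGF-beta and 51 and 56.8 CPM without (log2 2.36 ± 0.079 and 2.32 ± 0.073). Sesn1, a sestrin that limits mTORC1, had 15.2 and 13.5 CPM with TGF-beta and 49.3 and 45.8 CPM without (log2 -1.73 ± 0.10 and -1.65 ± 0.11). Trp53inp1, a p53-induced nuclear protein, had 20.4 and 11.2 CPM with TGF-beta and 69.8 and 61.4 CPM without (log2 -2.05 ± 0.20 and -1.69 ± 0.13). Gadd45a and Plk2 were higher, and Sesn1 and Trp53inp1 lower, in each TGF-beta library. Apoptosis regulators were 1 higher and 7 lower of 18. Bcl2l11, which encodes the death-promoting protein Bim, had 17 and 13.6 CPM with TGF-beta and 64.5 and 59 CPM without (log2 -2.01 ± 0.11 and -1.86 ± 0.098). Bmf, another BH3-only gene, had 7.55 and 7.89 CPM with TGF-beta and 27.3 and 25.7 CPM without (log2 -1.78 ± 0.10 and -1.81 ± 0.12). Bcl2l1, whose main product Bcl-xL protects from death, had 32.8 and 39.7 CPM with TGF-beta and 47.7 and 47 CPM without (log2 -0.39 ± 0.096 and -0.53 ± 0.090, and -0.25 without replicate 1 of p53_si_TGFB). Promoters and inhibitors of death were thus both among the genes that fell, while Bax, a pore-forming member, was not called with 15 libraries (log2 0.69 ± 0.20 and 0.19 ± 0.10, adjusted p = 0.015 and 0.14). For the stress, metabolic, cell cycle and p53 genes given as changed, adjusted p was at most 0.012 with 16 and 0.033 with 15 libraries.

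Growth factor pathways changed member by member. Genes of the IGF axis fell for 12 of 17 and rose for 2. Igf2, the fetal growth factor, had 137 and 140.2 CPM with TGF-beta and 1160.1 and 1157 CPM without (log2 -3.06 ± 0.083 and -3.08 ± 0.092). Its imprinted neighbour H19, a noncoding RNA, had 107 and 140.0 CPM with TGF-beta and 913 and 945 CPM without (log2 -2.91 ± 0.12 and -3.12 ± 0.10). Both were lower in each TGF-beta library. Of 28 Wnt ligands and modulators 13 fell and 5 rose: Wnt4 had 1.97 and 2.01 CPM with TGF-beta and 36.8 and 28.3 CPM without (log2 -4.03 ± 0.17 and -4.04 ± 0.22), whereas Wnt11, a ligand of noncanonical signalling, had 29.5 and 41.4 CPM with TGF-beta and 3.59 and 2.92 CPM without (log2 3.45 ± 0.20 and 3.18 ± 0.16). EGF family genes were 5 higher and 5 lower of 14. Hbegf, a ligand of the EGF receptor, had 15.8 and 15.2 CPM with TGF-beta and 2.63 and 2.96 CPM without (log2 2.47 ± 0.15 and 2.49 ± 0.18), and Btc, betacellulin, had 1.83 and 1.13 CPM with TGF-beta and 12 and 12.6 CPM without (log2 -3.04 ± 0.19 and -2.75 ± 0.20). These ligands of 1 receptor moved in opposite directions. PDGF and FGF genes were 13 higher and 12 lower of 28. Pdgfb, a ligand of the mural cell receptor, had 10.6 and 12.3 CPM with TGF-beta and 1.91 and 1.84 CPM without (log2 2.61 ± 0.13 and 2.49 ± 0.14). Etv4, an ETS factor induced by FGF signalling, had 16 and 19 CPM with TGF-beta and 0.681 and 0.680 CPM without (log2 4.67 ± 0.14 and 4.54 ± 0.14). Pdgfb and Etv4 were higher in each TGF-beta library. In the Notch pathway 4 of 13 genes rose and 2 fell. Jag1, a Notch ligand of mural cells, had 116 and 70.2 CPM with TGF-beta and 13 and 12.3 CPM without (log2 2.88 ± 0.19 and 3.19 ± 0.082), while Dlk1, a noncanonical ligand, had 22.4 and 33.2 CPM with TGF-beta and 807 and 746 CPM without (log2 -4.81 ± 0.17 and -5.12 ± 0.14). Immediate early factors rose for 9 of 19 and fell for 3; Egr1, a zinc finger factor induced by mitogens, fell to 8.11 and 8.0 CPM with TGF-beta, against 39.2 and 30.4 CPM without (log2 -2.11 ± 0.12 and -2.1 ± 0.15).

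Guidance genes were 10 higher and 12 lower of 30. Epha3, an ephrin receptor of migrating mesenchyme, had 113 and 68.5 CPM with TGF-beta and 7.9 and 6.92 CPM without (log2 3.62 ± 0.21 and 3.93 ± 0.10). Sema3c, a secreted semaphorin of heart development, had 83.5 and 56.1 CPM with TGF-beta and 254 and 259.7 CPM without (log2 -1.88 ± 0.14 and -1.62 ± 0.075). The groups did not overlap for either gene. Channel and transporter genes were 5 higher and 6 lower of 16; Piezo2, a stretch-activated channel, had 131 and 68.7 CPM with TGF-beta and 8.94 and 8.72 CPM without (log2 3.5 ± 0.26 and 3.89 ± 0.11). Chromatin genes were 4 of 21 higher and 2 lower. Hdac5, a class II histone deacetylase, had 31.6 and 38 CPM with TGF-beta and 52.6 and 47.3 CPM without (log2 -0.52 ± 0.11 and -0.66 ± 0.11), and Dnmt3a, a DNA methyltransferase, had 56.2 and 30.2 CPM with TGF-beta and 80.3 and 80.7 CPM without (log2 -0.90 ± 0.21 and -0.52 ± 0.11, and -1.41 without replicate 1 of p53_si_TGFB). Of 10 endothelial markers 4 were tested, and all 10 together had a summed level of 30.1 and 20.8 CPM with TGF-beta and 16.6 and 16.6 CPM without. Flt1, a receptor for vascular endothelial growth factor, rose (log2 1.15 ± 0.18 and 1.41 ± 0.13) while Tek, the angiopoietin receptor, fell (log2 -1.23 ± 0.30 and -0.82 ± 0.31). Of 10 cardiomyocyte markers 2 were tested, and all 10 together had a summed level of 81.3 and 140.5 CPM with TGF-beta and 24.1 and 23.5 CPM without. Nearly all of that sum was Tnnt2, cardiac troponin T, at 81.1 and 139.8 CPM with TGF-beta and 23.7 and 22.7 CPM without (log2 2.25 ± 0.21 and 1.8 ± 0.11), so that its groups did not overlap. The heart myosin gene Myh6 had 0 and 0 CPM with TGF-beta and 0 and 0.0400 CPM without, and Myh7 had 0 and 0 CPM with TGF-beta and 0.0454 and 0 CPM without. For the growth factor, guidance, chromatin and marker genes given as changed, adjusted p was at most 0.0059 with 16 and 0.045 with 15 libraries.

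The largest changes are given for genes that averaged 5 CPM or more. Of the 12 largest rises, Acsbg1, an acyl-CoA synthetase, had 21.6 and 25.8 CPM with TGF-beta and 0.0454 and 0.120 CPM without. Megf10, a receptor for the engulfment of dying cells, had 102 and 60.2 CPM with TGF-beta and 0.318 and 0.360 CPM without (log2 7.88 ± 0.32 and 8.2 ± 0.15). Cmklr1, the receptor for chemerin, had 12.3 and 12.8 CPM with TGF-beta and 0.0454 and 0.120 CPM without. These genes were near 0 in both libraries without TGF-beta. C1qtnf3, a secreted adipokine, had 55.3 and 56.3 CPM with TGF-beta and 0.182 and 0.320 CPM without (log2 7.74 ± 0.21 and 7.73 ± 0.18), and Htr2b, a serotonin receptor of heart valves and fibroblasts, had 25.9 and 30.8 CPM with TGF-beta and 0.499 and 0.400 CPM without (log2 5.97 ± 0.30 and 5.84 ± 0.25). Crispld2, Rasl12, Mmp9, Ctsw, Cnr1, Fam20a and Tubb3 complete the list. Among the 12 largest falls, Angptl7, a secreted angiopoietin-like protein, had 0.0938 and 0.0516 CPM with TGF-beta and 79.7 and 69.2 CPM without. Tnxb, the matrix protein tenascin X, had 0 and 0.0516 CPM with TGF-beta and 14.1 and 13.2 CPM without. Fmo2, a flavin monooxygenase, had 0.0938 and 0.0516 CPM with TGF-beta and 33.5 and 28.9 CPM without. Ppargc1a, a coactivator of mitochondrial genes, had 0.188 and 0.103 CPM with TGF-beta and 19.1 and 15.7 CPM without (log2 -6.84 ± 0.25 and -6.5 ± 0.31). Each was near 0 in both TGF-beta libraries, as was Krt15, a keratin of basal epithelium, at 0.0938 and 0.206 CPM with TGF-beta and 20.6 and 17.8 CPM without (log2 -6.98 ± 0.39 and -7.6 ± 0.46). Dnajc6, Pkhd1l1, Cyp2s1, Gpm6a, Lum, Sh2d4a and Podxl were the rest. In all, 6 genes stood under 0.5 CPM in both p53_si libraries and at 10 CPM or more in both p53_si_TGFB libraries, and 13 the reverse. For the genes given here with levels but no log2 change, the lower group held 4 counts or fewer. The log2 changes given in this paragraph depend in part on the prior count of the fit. Adjusted p among the genes given was at most 5.8e-08 with 16 and 6.4e-09 with 15 libraries.

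The response with p53 siRNA was set against that with control siRNA by testing the difference of the log2 changes, p53 siRNA minus control siRNA, in which no library is shared. With 16 and with 15 libraries alike, 69 genes (0.445% of those tested) had a positive and 83 (0.536%) a negative difference. With 15 libraries alone the counts were 158 and 203 of 16103 (0.981% and 1.26%). Among the 8 largest positive differences, Saa3 and Steap4 belong to the complement and acute phase list, where 2 of 16 differences were positive and 0 negative. Cxcl5 and Cxcl1 belong to the chemokine list, where 2 of 16 were positive and 1 negative. Saa3, an acute phase protein, had 4.22 and 7.69 CPM in p53_si_TGFB and 101 and 82 CPM in p53_si libraries, beside 0.545 and 0.296 CPM in Cont_si_TGFB and 97.5 and 77.8 CPM in Cont_si libraries (difference 3.79 ± 0.46 and 3.32 ± 0.53). Steap4, a metalloreductase induced by cytokines, had 4.17 and 4.64 CPM in p53_si_TGFB and 39.5 and 41.3 CPM in p53_si libraries, beside 1.04 and 1.61 CPM in Cont_si_TGFB and 42.4 and 41.5 CPM in Cont_si libraries (difference 1.76 ± 0.18 and 1.68 ± 0.20). Cxcl5, a neutrophil chemokine, had 62.3 and 76.2 CPM in p53_si_TGFB and 263 and 259.9 CPM in p53_si libraries, beside 19.9 and 28.4 CPM in Cont_si_TGFB and 316 and 295 CPM in Cont_si libraries (difference 1.74 ± 0.21 and 1.59 ± 0.18). These genes fell with TGF-beta under both siRNAs, and the level left with TGF-beta was higher in both p53 siRNA libraries than in both control siRNA libraries. Cxcl1, a related chemokine (difference 1.53 ± 0.15 and 1.43 ± 0.16), and Clu, the extracellular chaperone clusterin (difference 1.88 ± 0.28 and 1.53 ± 0.25), had the same form. Without TGF-beta, Cxcl1 was also lower with p53 siRNA, at 25.4 and 24.5 CPM in p53_si and 43.5 and 38.4 CPM in Cont_si libraries. Spp1, osteopontin, had 136 and 183 CPM in p53_si_TGFB and 5.08 and 6.04 CPM in p53_si libraries, beside 104 and 128 CPM in Cont_si_TGFB and 13.3 and 13.4 CPM in Cont_si libraries (difference 1.72 ± 0.25 and 1.5 ± 0.22). Tubb3, a tubulin of neurons, had 20.9 and 27.9 CPM in p53_si_TGFB and 0.454 and 0.760 CPM in p53_si libraries, beside 19.7 and 16.5 CPM in Cont_si_TGFB and 1.95 and 1.84 CPM in Cont_si libraries (difference 2.05 ± 0.34 and 1.83 ± 0.31). Both rose under either siRNA, and both stood lower in the p53 siRNA than in the control siRNA libraries without TGF-beta. Cebpd, a factor of the acute phase, had 29 and 50.4 CPM in p53_si_TGFB and 29.8 and 33.7 CPM in p53_si libraries, beside 19.8 and 20.2 CPM in Cont_si_TGFB and 53 and 43.9 CPM in Cont_si libraries (difference 1.6 ± 0.28 and 1.16 ± 0.17), but it shares exon bases with Spidr, so its counts are uncertain.

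Negative differences mean a smaller rise or a larger fall with p53 siRNA. Pappa, a protease that frees insulin-like growth factor, had 17.4 and 6.81 CPM in p53_si_TGFB and 6.85 and 6.72 CPM in p53_si libraries, beside 46 and 39.5 CPM in Cont_si_TGFB and 3.41 and 4.84 CPM in Cont_si libraries (difference -2.54 ± 0.46 and -2.01 ± 0.21). Its p53 siRNA groups overlapped: replicate 1 with TGF-beta was high, and replicate 2, the library that stands apart, lay at the level without TGF-beta. The rise of Pappa with TGF-beta was not called without replicate 1 of p53_si_TGFB (log2 0.0093), nor without either p53_si library (adjusted p = 0.15 to 0.97). Tnfrsf11b, the decoy receptor osteoprotegerin, had 8.77 and 6.55 CPM in p53_si_TGFB and 1.36 and 1.56 CPM in p53_si libraries, beside 13.8 and 14.2 CPM in Cont_si_TGFB and 0.796 and 0.919 CPM in Cont_si libraries (difference -1.64 ± 0.26 and -1.44 ± 0.24). Npnt, the basement membrane protein nephronectin, had 4.32 and 3.97 CPM in p53_si_TGFB and 71.8 and 75.2 CPM in p53_si libraries, beside 9.1 and 7.79 CPM in Cont_si_TGFB and 47 and 53.9 CPM in Cont_si libraries (difference -1.56 ± 0.17 and -1.49 ± 0.19). Nephronectin was higher without TGF-beta and lower with it in p53 siRNA cells than in control siRNA cells. Mpeg1, a pore-forming protein of macrophages, had 0.985 and 1.08 CPM in p53_si_TGFB and 45 and 40.2 CPM in p53_si libraries, beside 1.85 and 2.03 CPM in Cont_si_TGFB and 20.9 and 24.2 CPM in Cont_si libraries (difference -1.83 ± 0.32 and -1.89 ± 0.39). The haematopoietic markers given above summed to 2.44 and 3.35 CPM in p53_si_TGFB and 3.18 and 3.48 CPM in p53_si libraries, and their part in the levels of Mpeg1 was not tested. Nlrc5 (difference -1.55 ± 0.23 and -1.62 ± 0.27) showed the same order of groups. Wnt9a (difference -1.54 ± 0.20 and -1.67 ± 0.23) and Sh3tc1 (difference -2.06 ± 0.30 and -2.12 ± 0.42) were lower with TGF-beta in p53 siRNA cells than in control siRNA cells. Without TGF-beta the levels of Wnt9a overlapped, and those of Sh3tc1 were 15.6 and 15.9 CPM in p53_si and 15.2 and 15.5 CPM in Cont_si libraries. Oas3 had 9.54 and 12.1 CPM in Cont_si_TGFB and 21.8 and 25.2 CPM in Cont_si libraries (difference -1.53 ± 0.24 and -1.29 ± 0.24), and Cmpk2 (difference -1.15 ± 0.17 and -1.09 ± 0.18), Herc6 (difference -0.77 ± 0.15 and -0.68 ± 0.14) and Rsad2 (difference -1.43 ± 0.19 and -1.37 ± 0.19) also fell more with p53 siRNA. Matrix genes held differences of both signs: Postn, periostin, rose less with p53 siRNA (difference -0.91 ± 0.13 and -0.86 ± 0.11), and Pcolce2, an enhancer of procollagen cleavage (difference 1.06 ± 0.18 and 0.86 ± 0.12), and Emilin1, an elastic fibre protein (difference 0.75 ± 0.12 and 0.63 ± 0.083), rose more. Adjusted p of the differences given was at most 0.041 with 16 and 0.022 with 15 libraries.

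The calls of the difference rest on the spread estimated over all libraries. With only the 8 libraries of the contrast, edgeR called 0 of 14922 genes, with 614 positive and 516 negative at an unadjusted p under 0.05, while DESeq2 with 16 libraries called 227 positive and 274 negative. With 16 libraries alone the counts were 70 and 88, and leaving out any 1 of the 8 libraries moved both by over 1.5 times. Positive and negative counts were 4113 and 3604 without replicate 1 of p53_si_TGFB, which leaves the library that stands apart to represent TGF-beta, and 158 and 203 without replicate 2. They were 12 and 17 without replicate 1 and 16 and 22 without replicate 2 of p53_si. Without replicate 1 of Cont_si_TGFB they were 22 and 49, and without its replicate 2 24 and 22. Without replicate 1 of Cont_si they were 13 and 17, and without its replicate 2 28 and 34. Of the 24 genes whose difference is given as called, 8 kept the call whichever of the 8 libraries was left out, Cxcl1, Cxcl5, Npnt, Rsad2, Saa3, Sh3tc1, Steap4 and Wnt9a.

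**Figure D5:**
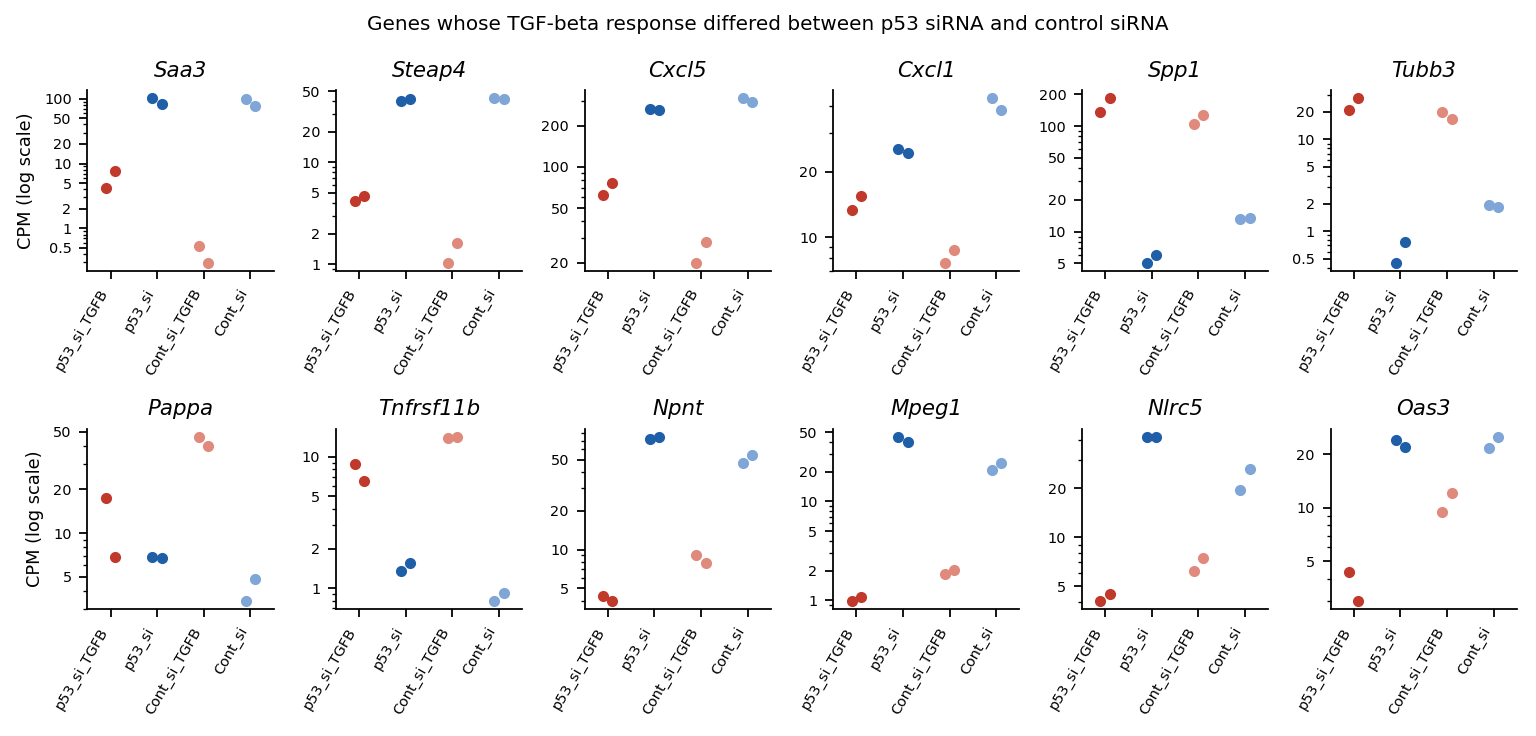
Levels (y axes, CPM, log scale, each with its own range) of 12 genes in the 8 single libraries of p53_si_TGFB, p53_si, Cont_si_TGFB and Cont_si (x axis, 1 point per library). The upper row holds genes with a positive difference between the TGF-beta responses, such as Saa3, at 4.22 and 7.69 CPM in p53_si_TGFB and 0.545 and 0.296 CPM in Cont_si_TGFB libraries, and the lower row genes with a negative one.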

How the data were processed

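The submitters' design text and labels give 16 libraries of polyadenylated RNA from MEC1 cells, 2 per group. The authors deposited 1 table of expected counts per gene (estimated counts, with 60.0% of the values above 0 within 0.01 of a whole number), not scaled for depth or length. The submitters' processing notes name TopHat2, Partek and the build mm10. Versions, annotation, strand setting and the treatment of reads that fit several genes are not given in the sources used here, so counts of near-identical and overlapping genes are uncertain.

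The expected counts were rounded to whole numbers. Of 46348 genes 29120 had a count, and 15494 passed filterByExpr (16103 with 15 libraries). TMM factors and edgeR's quasi-likelihood F test (edgeR 4.0.16, R 4.3.3, adjusted p by Benjamini-Hochberg over all genes tested, threshold 0.05) were used with 1 mean per group and 1 spread for all libraries. The coefficient of biological variation common to all genes came to 0.114 (16 libraries) and 0.0604 (15 libraries). With 2 libraries a group, no test of a single gene on its own values was used. The computation was tested on simulated data with known changes. Alternatives were RLE factors, DESeq2 1.42.0, no filter, the groups of a comparison alone, a replicate block, each library left out, and offsets for transcript length (14956 tested genes with a length).

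The comparison, the gene lists and the tests were chosen with earlier results of these data known. Genes were named as follows: Trp53, Mdm2, Mdm4, Cdkn1a and Prmt1, in each list the first 3 as listed and the 5 called genes with the lowest adjusted p, the 12 largest rises and falls at a mean of at least 5 CPM, the 8 largest differences in each direction, and up to 6 genes in each direction that stood under 0.5 CPM in 1 group and at 10 CPM or more in the other. Genes named after their values were seen are marked as such. Some genes that the rule picks are not reported here. Markers of mesothelial, smooth muscle, endothelial, cardiac and blood cells were among the lists. Motifs were searched in RefSeq promoters as letters only.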

Additional observations from a re-analysis of the deposited data

Results flagged for a closer look

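The TGF-beta response differed between p53 siRNA and control siRNA for 27 of the genes named above, by edgeR's quasi-likelihood test of the difference itself at an adjusted p under 0.05 with 16 and with 15 libraries. Values in parentheses are the differences of the log2 changes, p53 siRNA minus control siRNA, with 16 libraries. Positive differences were found for the acute phase and cytokine-induced genes Saa3 (3.79) and Steap4 (1.76) and the chemokines Cxcl5 (1.74) and Cxcl1 (1.53), while Ackr3, another of the 16 tested genes of the chemokine list, named after its value was seen, had a negative one. The matrix and secreted proteins Clu (1.88), Spp1 (1.72), Pcolce2 (1.06), Emilin1 (0.75) and Tgfbi (0.90) also had positive differences. The folate enzyme gene Mthfd2 (0.81) and the proline synthesis gene Pycr1 (0.88) of the amino acid stress list were positive as well. The tubulin gene Tubb3 (2.05), the acute phase factor gene Cebpd (1.60) and the imprinted noncoding RNA H19 (1.21) complete the positive side. Negative differences were found for the interferon-stimulated and antigen presentation genes Oas3 (-1.53), Cmpk2 (-1.15), Herc6 (-0.77), Rsad2 (-1.43) and Nlrc5 (-1.55). They were also found for the secreted or matrix proteins Pappa (-2.54), Tnfrsf11b (-1.64), Npnt (-1.56), Wnt9a (-1.54) and Postn (-0.91). The pore-forming protein gene Mpeg1 (-1.83), the retinaldehyde dehydrogenase gene Aldh1a1 (-0.84) and Sh3tc1 (-2.06) were negative too. Tgfbi, H19 and Aldh1a1 were not among the 24 genes whose difference was followed over the libraries left out in turn. No group held 4 or more libraries, so single libraries could not be examined for values far from their group.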

How the results depend on the processing

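The number of genes called in the TGF-beta response with p53 siRNA stayed within 1.5 times of 3604 higher and 3408 lower with RLE factors, DESeq2, no filter, the replicate block and length offsets. With only the groups of the comparison it was 896 higher and 1311 lower, and leaving out 1 library in turn gave 2497 to 5121 higher and 2585 to 4954 lower. Calls were made for 159 of the 168 genes named for the response. They held for 133 genes with only the groups of the comparison, 152 without a filter, and 157 or more with RLE factors, DESeq2, the block and both length offsets.

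The difference from the control siRNA response depended on more settings. Against 70 positive and 88 negative genes, DESeq2 gave 227 and 274, no filter 1000 and 952, length offsets 269 and 306, and length offsets without replicate 2 of p53_si_TGFB 303 and 415. With only the groups of the comparison edgeR gave 0 and 0, with 614 and 516 at an unadjusted p under 0.05, while RLE factors changed neither count by over 1.5 times. Leaving out 1 library in turn gave 12 to 4113 positive and 17 to 3604 negative genes. The cause was not tested.

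The fall of Trp53 with p53 siRNA ranged from -1.32 to -1.01 with TGF-beta and from -1.42 to -1.23 without it over the libraries left out in turn. With only the groups of the comparison it was -1.17 with TGF-beta and not called (adjusted p = 0.69). These alternatives for Trp53 and those for the list counts were chosen after seeing the data. With only the groups of the comparison, 64 of the 112 list counts moved and 48 stayed the same. RLE factors moved 0, DESeq2 2, the replicate block 2 and no filter 7. Length offsets moved 11 with 16 libraries. Leaving out single libraries moved more list counts than these other settings, and fewer than the groups of the comparison alone. The list counts given above therefore depend on which libraries enter the fit. Among the genes named, only 5 changed sign, none of them said to have changed in the response. Over the libraries left out in turn, Cdh2 ranged from -0.030 to 0.094, Mdm2 from -0.028 to 0.24, Cebpd from -0.13 to 0.67, Tgfb2 from -0.25 to 0.069 and Zeb1 from -0.63 to 0.19. With length offsets and without replicate 2 of p53_si_TGFB, Cebpd was at -0.15, Tgfb2 at 0.055 and Zeb1 at 0.16. Tgfb2 was at 0.060 with length offsets and 16 libraries.

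With the replicate number as a block, 3431 genes were called higher and 3248 lower, and the difference counted 43 positive and 61 negative genes. Deviations of libraries with the same number correlated at r = 0.034 between p53_si_TGFB and p53_si across genes. The r was -0.075 between Cont_si_TGFB and Cont_si, 0.079 between p53_si_TGFB and Cont_si_TGFB, and -0.10 between p53_si and Cont_si. The p53_si_TGFB deviations include the library that stands apart, with its trend by transcript length. Whether libraries with the same number shared a culture or batch was not tested. The block ended the calls of P4ha2 and Pappa in the response and of Mthfd2 and Pycr1 in the difference among the genes named.

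Where 1 library is left out, its partner alone stands for the group and is taken to vary as other groups do, and no alternative gives the spread between separate cultures. Depth of 19617742 to 30759199 counts limits genes near 0, whose fold changes depend on few counts. Reads of overlapping genes cannot be told apart.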
